A study of Homo sapiens with 8 samples.

Results

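The 10 genes described here encode the core of the microRNA machinery: the Argonautes AGO1, AGO2, AGO3 and AGO4, the nucleases DROSHA and DICER1, the DROSHA partner DGCR8, and the Argonaute partners TNRC6A, TNRC6B and TNRC6C. They were chosen by symbol from a table of 26716 genes, and all 10 were found there, each in 1 row. The series measured poly(A) RNA of HepG2, a human hepatocellular carcinoma cell line, in 8 libraries. All cells received both a short RNA at 1 nM, which was a miR-552-3p mimic or a control mimic, and an siRNA at 30 nM, which targeted importin8 or was a control, and were lysed after 72 h. The 4 groups, of 2 libraries each, are called by what was active: control cells (NC in the plots: control mimic, control siRNA), mimic-only cells (miR-552-3p: mimic, control siRNA), siRNA-only cells (siIPO8-NC: importin8 siRNA, control mimic) and combined cells (siIPO8-miR-552-3p: both active RNAs). No group of untransfected cells entered the comparisons, so every group carried transfected double-stranded RNA of both kinds. The labels do not say that libraries of a group came from separate cultures, so the p-values measure the spread between these libraries, which may be technical. The genes were of interest because importin8, a nuclear import receptor, is known to bind Argonaute proteins.

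A microRNA gene is copied into a long transcript whose hairpin is cut out in the nucleus by the Microprocessor, a complex of the nuclease DROSHA and the RNA-binding protein DGCR8. After export, DICER1 trims the hairpin to a short duplex, and an Argonaute keeps one strand as its guide. The guide pairs with target transcripts mainly through its seed, and proteins of the TNRC6 (GW182) family bound to Argonaute recruit deadenylases that shorten the poly(A) tail. A mimic or an siRNA enters this route at the last stage, since it is loaded into Argonaute without needing DROSHA or DICER1 for its production. AGO2 is the family member best known for cutting a fully paired target, which is how most siRNAs act. Importin8 has been described as a partner of Argonautes in the nucleus and on target transcripts.

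The active strand of the mimic is the reference for every mimic comparison, so its mature sequence is given first, with the seed (bases 2 to 8) in capitals.
hsa-miR-552-3p: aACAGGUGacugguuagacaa
The sequence is RefSeq's (GRCh38.p14), and it lies on the minus strand at chr1:34669614-34669634. Among 2370 mature human microRNAs of that table, miR-552-3p was the only one with this seed. The letters that pair with the seed in a transcript are CACCTGT, and an A directly after them gives the 8-letter form CACCTGTA.
Stretches of annotated 3′ UTRs of AGO1, AGO4, AGO3, DGCR8 and TNRC6C that hold these letters are shown, 1 for each gene, with the match in capitals, because they are where a direct pairing of the mimic could be sought.
AGO1 site: attttccaCACCTGTccactcct
AGO4 site: aacggcgcCACCTGTgtttgctg
AGO3 site: gtggtttgCACCTGTAgtccgaac
DGCR8 site: tggactggCACCTGTgcagagtg
TNRC6C site: tgggctccCACCTGTttacagac
These sites lie on the plus strand of GRCh38, at chr1:35922846-35922852 (AGO1), chr1:35855469-35855475 (AGO4), chr1:36068402-36068409 (AGO3), chr22:20111257-20111263 (DGCR8) and chr17:78106190-78106196 (TNRC6C). AGO2 also held 3 matches of 7 letters, which are not shown here. A match is a description of the letters and not evidence of pairing.

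The libraries were of like depth, with expected counts summing to 21608563 to 22102373 per library. Each of the 10 genes had enough counts for the test, from 253 for DGCR8 to 2648 for DICER1 in a library. Fold changes are log2 values from a fit to all 8 libraries, and the adjusted p is that of edgeR's quasi-likelihood test with Benjamini-Hochberg adjustment over 17715 genes, passing under 0.05. Each value was recomputed in up to 15 alternative fits, among them 8 that each leave out 1 library. On the main axis of variation of all tested genes (51.4% of the variance), control and mimic-only cells formed the extremes. All 8 hepatocyte markers examined (ALB, AFP, TTR, SERPINA1, APOA1, APOB, HNF4A and TF) were at 1 CPM or more in every library, where CPM is the count scaled to a common library size. Their summed level was 59760 to 65891 CPM in control cells, 47247 to 48182 in mimic-only cells, 61356 to 63412 in siRNA-only cells and 68383 to 72259 in combined cells. Of 5 fibroblast markers 1 reached 1 CPM in both libraries of a group, with sums of 5.40 to 19.5 CPM, and DCN and LUM had no counts in 3 of the 4 groups. Of 4 blood cell markers in the table only LYZ reached 1 CPM in both libraries of every group, at 839 to 2390 CPM, while PTPRC was at 0.458 CPM or less. In the endothelial list PECAM1 was at 14.3 to 72.4 CPM and KDR at 0.471 or less, and the list's sum was 75.4 to 81.2 CPM in control cells and 19.5 to 30.7 in the other groups. CDH5 went the other way, from a mean of 0.0669 CPM in control cells to 2.87 in siRNA-only and 1.19 in combined cells. Of 4 cholangiocyte markers 3 were at 1 CPM or more in every group, and their sum was 553 to 555 CPM in control, 916 to 923 in mimic-only, 327 to 348 in siRNA-only and 393 to 397 in combined cells. Between control and mimic-only cells the mean of KRT19 went from 31.3 to 662 CPM, while SOX9 went from 397 to 174 and EPCAM from 126 to 83.6. The part of these levels in the results was not tested. In bulk RNA, fewer cells of a kind and less RNA per cell cannot be told apart.

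IPO8, the transcript that the siRNA targets, was at 34.7 and 33.3 CPM in control cells, 25.4 and 24.6 in mimic-only cells, 11.3 and 11.5 in siRNA-only cells, and 7.65 and 8.30 in combined cells. The target was lowest in the 4 libraries labelled with its siRNA. Its level with the siRNA was 33.6% of that without it under control mimic and 31.9% under the mimic. The mimic effect on IPO8 was -0.44 under control siRNA (adjusted p = 0.00083) and -0.52 under importin8 siRNA (adjusted p = 0.0022).

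Per unit of transcript length, the machinery genes differed several-fold among themselves. In FPKM, the deposited level per transcript length and library depth, DICER1 and TNRC6A stood highest in control cells at 10.6 ± 1.55 and 10.5 ± 0.997 (SD, n = 2 in each group throughout), and these did not differ beyond their spread. DROSHA followed at 8.38 ± 0.573. AGO1, AGO3 and DGCR8 came next at 5.47 ± 0.643, 5.37 ± 0.0495 and 4.78 ± 0.700, again within their spread. AGO4 at 3.02 ± 0.0849, AGO2 at 2.80 ± 0.0141, TNRC6B at 2.45 ± 0.431 and TNRC6C at 1.72 ± 0.141 were lowest. In control cells AGO2 thus stood beside AGO4 and under AGO1 and AGO3 per unit of length. In CPM, which does not divide by length, the control means were 40.6 for AGO2, 44.4 for AGO1, 32.8 for AGO3 and 18.7 for AGO4.

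**Figure D1:**
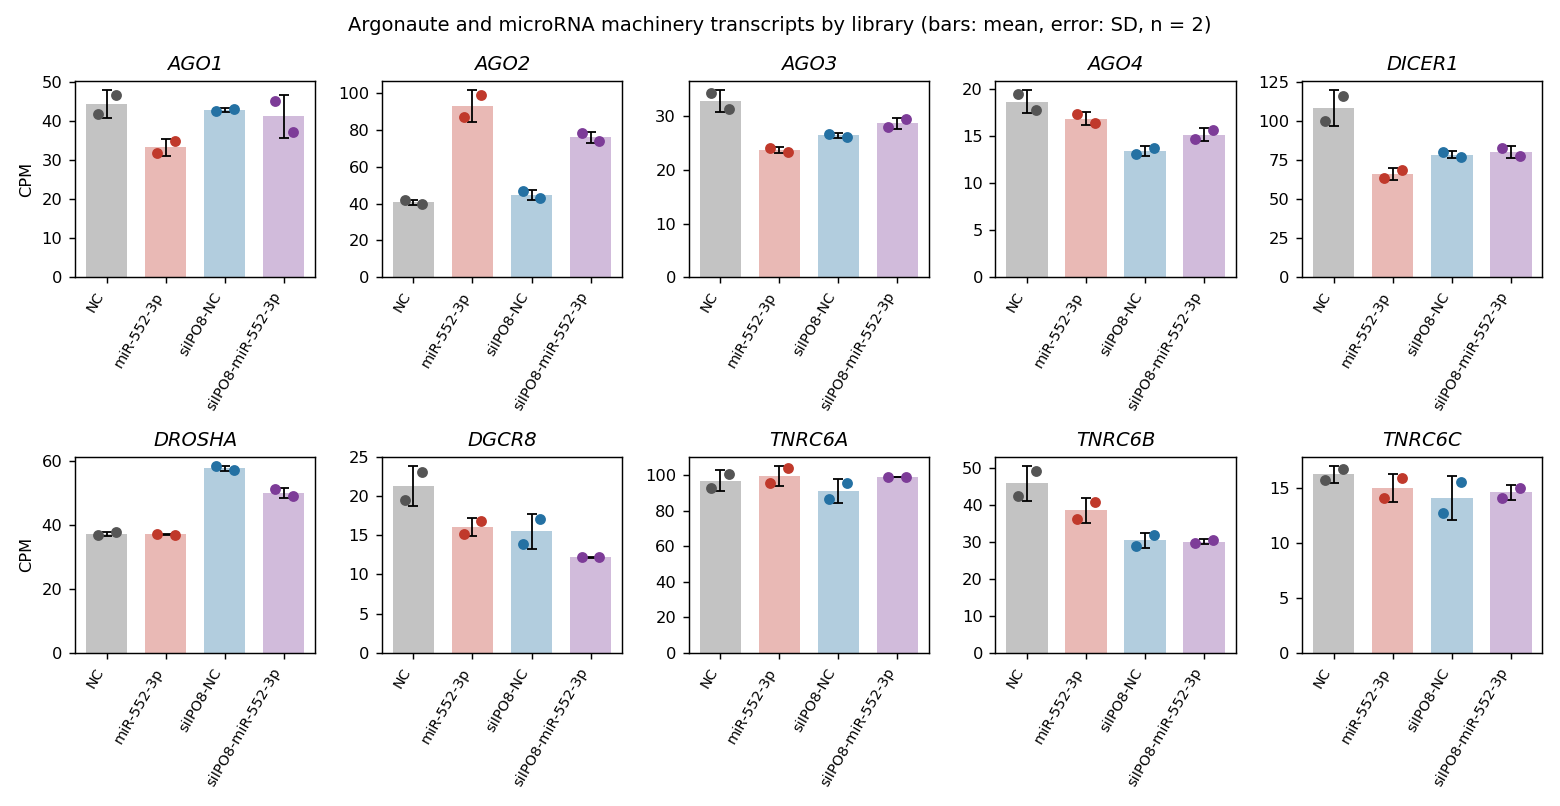
Level of each of the 10 transcripts in CPM (y axes, each from 0) in the 4 groups; points are libraries, bars are means and error bars are SD (n = 2). AGO2 stands at 73.9 to 98.9 CPM in the 4 mimic libraries and at 39.5 to 46.8 CPM in the other 4, and DROSHA is higher in the 4 importin8 siRNA libraries than in the other 4.

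AGO2, the Argonaute that cuts fully paired targets, was the member that moved most, and it rose with the mimic under either siRNA. Its level was 41.7 and 39.5 CPM in control cells, 86.8 and 98.9 in mimic-only cells, 46.8 and 42.9 in siRNA-only cells, and 78.1 and 73.9 in combined cells. All 4 mimic libraries were above all 4 libraries with the control mimic. With control siRNA the mimic raised AGO2 by 1.19 on the log2 scale (SE 0.08; adjusted p = 7.8e-07), a 2.28-fold change. With importin8 siRNA the rise was 0.76 (SE 0.08; adjusted p = 9.9e-05), or 1.70-fold. Both calls were kept in all 15 alternative fits, at 1.09 to 1.29 and 0.70 to 0.83. The rise with importin8 siRNA was smaller by 0.43 (SE 0.11; adjusted p = 0.017). This difference did not pass in the fits without mimic-only replicate 2, siRNA-only replicate 1 or combined replicate 2, at -0.33, -0.37 and -0.39 (adjusted p = 0.064, 0.078 and 0.070).

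The importin8 siRNA by itself gave no call for AGO2, with a value of 0.14 (SE 0.08; adjusted p = 0.19). Among mimic-treated cells AGO2 was lower with the siRNA by 0.29 (adjusted p = 0.018), which was 81.9% of the level without it. That call was lost without mimic-only replicate 2, combined replicate 1 or combined replicate 2, at -0.18, -0.33 and -0.25 (adjusted p = 0.17, 0.053 and 0.12).

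AGO1 and AGO3, both known to hold guide strands and act with TNRC6 proteins, went the other way in mimic-only cells. AGO1 was at 41.9 and 46.9 CPM in control cells and 31.9 and 35 in mimic-only cells, and at 42.6 and 43.3 in siRNA-only cells and 45.2 and 37.4 in combined cells. The mimic-only libraries were the only ones under 37 CPM. AGO1 fell with the mimic under control siRNA by 0.41 (SE 0.10; adjusted p = 0.0052), and without mimic-only replicate 1 the value was -0.34 (adjusted p = 0.051). With importin8 siRNA its value was -0.06 (SE 0.10; adjusted p = 0.72). The difference between these mimic effects, 0.35 (SE 0.14; adjusted p = 0.085), did not pass, but passed with upper-quartile scaling (0.41, adjusted p = 0.048) and in the fits without control replicate 1 or combined replicate 2, at 0.45 and 0.49 (adjusted p = 0.044 and 0.036).

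AGO3 was at 34.3 and 31.4 CPM in control cells, 24.1 and 23.4 in mimic-only cells, 26.8 and 26.1 in siRNA-only cells, and 28.0 and 29.5 in combined cells. No neighbouring groups overlapped in the order of its levels, which ran from control cells through combined cells and siRNA-only cells down to mimic-only cells. AGO2 and AGO4 were likewise separated in their own orders. In single comparisons, each of 1 pair of groups, 67.8 to 78.5% of all genes did not overlap. The share of all genes with every neighbouring pair separated was not computed, so this separation has no background. The mimic lowered AGO3 by 0.47 (SE 0.08; adjusted p = 0.00048) with control siRNA, and its value with importin8 siRNA was 0.12 (SE 0.08; adjusted p = 0.28). The difference of 0.59 (SE 0.11; adjusted p = 0.0028) passed in all 14 alternative fits, at 0.53 to 0.65. The siRNA with control mimic lowered AGO3 by 0.31 (SE 0.08; adjusted p = 0.0074), a call lost with DESeq2 (-0.32, adjusted p = 0.066) and without siRNA-only replicate 2 (-0.29, adjusted p = 0.053).

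AGO4, an Argonaute close in sequence to AGO1 and AGO3, was at 19.5 and 17.8 CPM in control cells, 17.4 and 16.4 in mimic-only cells, 13.1 and 13.8 in siRNA-only cells, and 14.7 and 15.7 in combined cells. It fell with the importin8 siRNA under control mimic by 0.48 (SE 0.10; adjusted p = 0.0023), in all 15 alternative fits, and no mimic comparison gave a call. Its values with the mimic were -0.14 with control siRNA (adjusted p = 0.22) and 0.18 with importin8 siRNA (adjusted p = 0.21). AGO4, AGO1 and AGO3 lie in this order on the plus strand of chromosome 1 (35808172 to 35857890, 35869808 to 35930528 and 35930718 to 36072500), with 11917 and 189 bases between them, while AGO2 lies on chromosome 8 (140520156 to 140635619, minus strand). With reads of 50 bases, an unspliced read could not touch both AGO1 and AGO3, which lie 189 bases apart. Whether RNA running on past the end of AGO1 was counted to AGO3 was not tested. The use of strand in counting was not stated in the labels, but strand would not separate these neighbours, since both lie on the plus strand.

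The make-up of the Argonaute family therefore differed more than its sum. The 4 genes together came to 16.3 and 17.0 FPKM in control cells, 16.8 and 17.7 in mimic-only cells, 15.3 and 15.2 in siRNA-only cells, and 18.7 and 16.9 in combined cells. AGO2 held 17.2 and 16.4% of that sum in control cells and 34.3 and 36.5% in mimic-only cells, where it was the family member with the highest FPKM. It held 20.7 and 19.3% in siRNA-only cells and 26.8 and 28.6% in combined cells. AGO1 went from 30.8 and 34.9% in control cells to 23.7 and 24.2% in mimic-only cells. AGO3 went from 33.1 and 31.3% to 25.1 and 25.0%. These shares are a description of transcript levels, with no test, and say nothing of protein. They depend on the transcript length by which each gene's FPKM was divided.

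**Figure D2:**
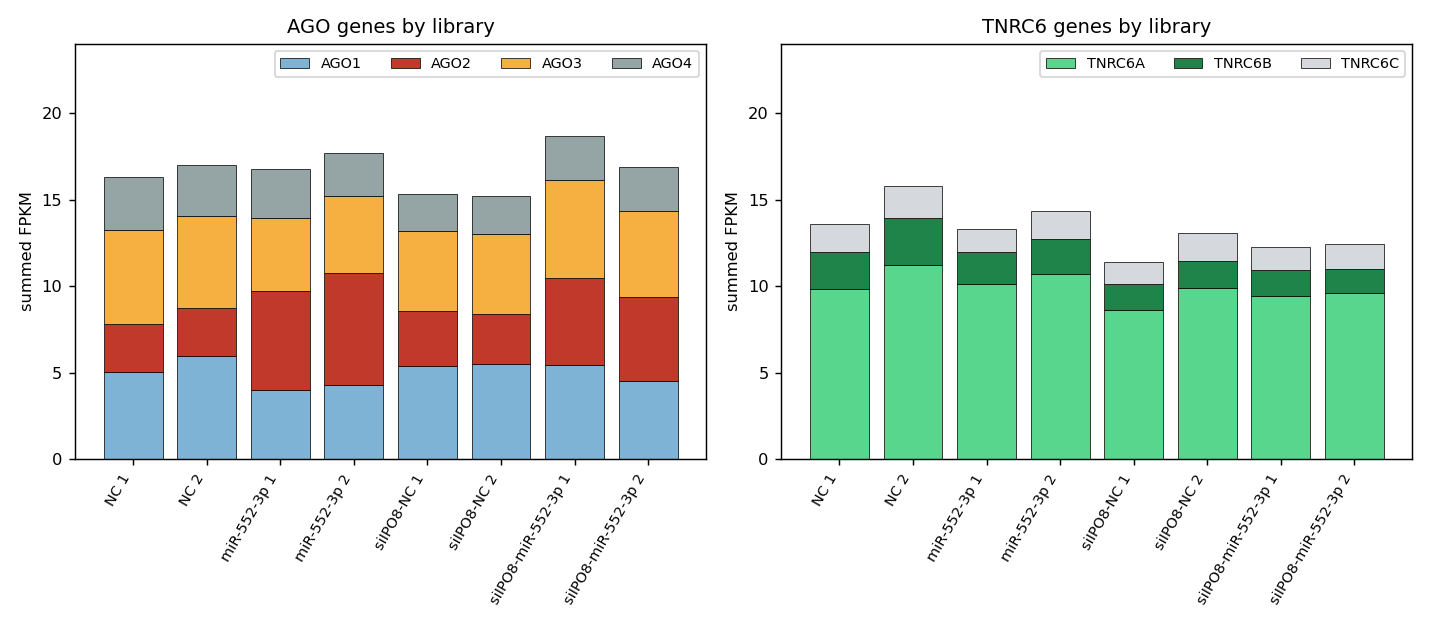
Stacked FPKM of the 4 AGO genes (left) and the 3 TNRC6 genes (right) in each of the 8 libraries (x axis: group and replicate; y axis: summed FPKM). The AGO2 segment is tallest in the mimic-only libraries, at 5.76 and 6.47 FPKM against 2.81 and 2.79 in control cells, while TNRC6A makes up 71.1 to 77.4% of the TNRC6 sum throughout.

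DICER1, the cytoplasmic nuclease that makes the microRNA duplex, was highest in control cells. It was at 100 and 116 CPM there, 63.5 and 68.6 in mimic-only cells, 80.0 and 76.8 in siRNA-only cells, and 82.7 and 77.4 in combined cells. The importin8 siRNA groups overlapped each other and lay between control cells and mimic-only cells without touching either. With control siRNA the mimic lowered DICER1 by 0.71 (SE 0.08; adjusted p = 3.6e-05), to 61.1% of control cells. With importin8 siRNA the value was 0.03 (SE 0.08; adjusted p = 0.82). The difference of 0.74 (SE 0.12; adjusted p = 0.00092) passed in all 14 alternative fits, at 0.63 to 0.86, and was the largest of any member.

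The siRNA effect on DICER1 pointed in opposite directions in the 2 mimic settings. With control mimic DICER1 fell by 0.46 (SE 0.08; adjusted p = 0.00099), also in all 15 alternative fits. With the mimic it rose by 0.28 (SE 0.08; adjusted p = 0.026), but that call was lost without mimic-only replicate 1, combined replicate 1 or combined replicate 2, at 0.23, 0.23 and 0.33 (adjusted p = 0.16, 0.17 and 0.062). Both falls in DICER1, with the mimic and with the siRNA, are measured against the same control libraries. As a ratio of FPKM, DICER1 to AGO2 was 3.40 and 4.21 in control cells, 1.04 and 0.994 in mimic-only cells, 2.43 and 2.57 in siRNA-only cells, and 1.52 and 1.5 in combined cells. DICER1 lies on the minus strand at chr14:95086228-95158010 and overlaps the antisense gene DICER1-AS1, which was at 1.12 CPM or less.

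**Figure D3:**
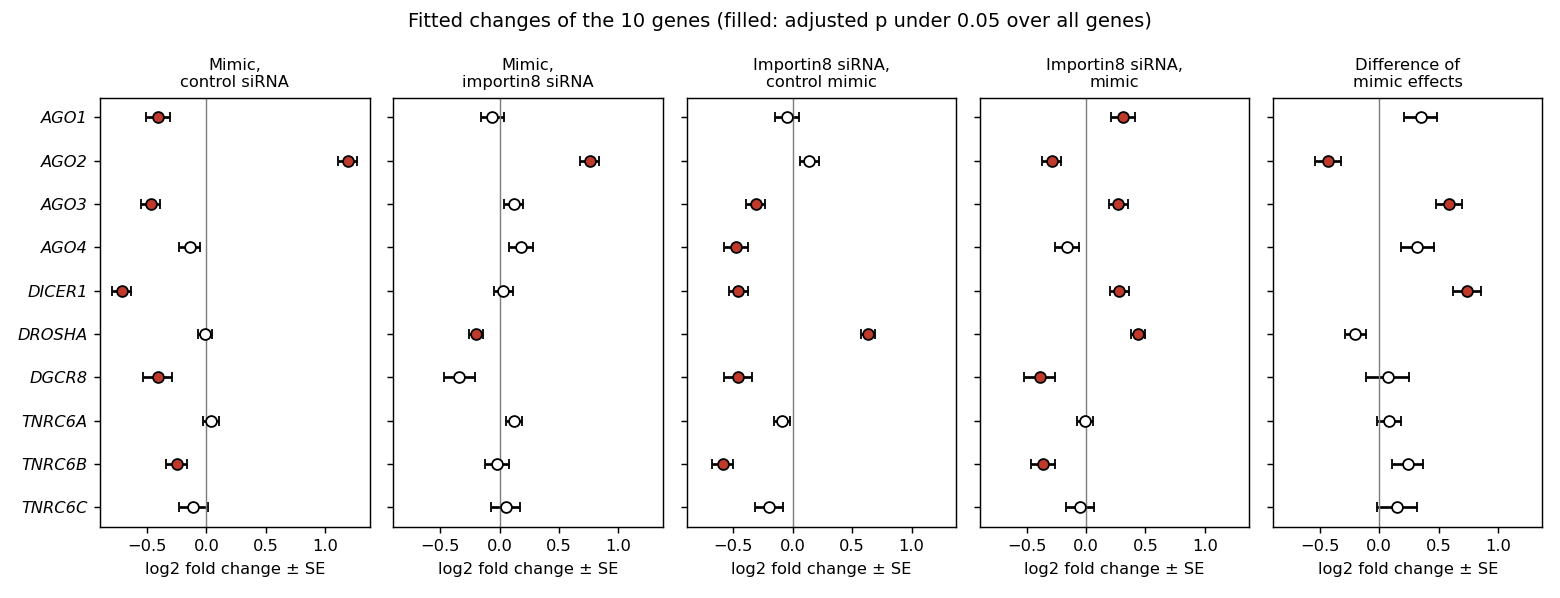
Fitted log2 fold change (x axis) with its SE for each of the 10 genes in the 4 comparisons and in the difference of the mimic effects (importin8 siRNA minus control siRNA); filled points have an adjusted p under 0.05 over all genes. AGO2 lies farthest right with the mimic, at 1.19 and 0.76, and DROSHA with the siRNA, at 0.63 and 0.44.

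The Microprocessor genes DROSHA and DGCR8 changed in opposite directions with the importin8 siRNA. DROSHA, its nuclease, was at 36.9 and 37.8 CPM in control cells, 37.3 and 36.9 in mimic-only cells, 58.4 and 57.3 in siRNA-only cells, and 51.3 and 49.1 in combined cells. All 4 siRNA libraries were above all 4 others, and control cells and mimic-only cells overlapped. DROSHA rose with the siRNA by 0.63 (SE 0.06; adjusted p = 2.3e-05) with control mimic, a 1.55-fold change, and by 0.44 (SE 0.06; adjusted p = 0.00048) with the mimic. Both rises passed in all 15 alternative fits. The mimic gave -0.01 (adjusted p = 0.91) with control siRNA. With importin8 siRNA DROSHA fell by 0.20 (SE 0.06; adjusted p = 0.029), a call lost in 6 of 15 alternatives: DESeq2 (adjusted p = 0.21), no filter on low counts (adjusted p = 0.052), and the fits without siRNA-only replicate 1 or 2 or combined replicate 1 or 2, at -0.23 to -0.16 (adjusted p = 0.087 to 0.20). The difference between the mimic effects was -0.20 (SE 0.09; adjusted p = 0.13).

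DGCR8, the subunit that binds the hairpin, was at 19.5 and 23.1 CPM in control cells, 15.2 and 16.8 in mimic-only cells, 13.9 and 17.1 in siRNA-only cells, and 12.2 in each combined library. Its siRNA effect was -0.46 (SE 0.12; adjusted p = 0.012) with control mimic and -0.39 (SE 0.13; adjusted p = 0.043) with the mimic, so DGCR8 fell where DROSHA rose. The mimic effect was -0.41 (SE 0.12; adjusted p = 0.016) with control siRNA and -0.34 (SE 0.13; adjusted p = 0.069) with importin8 siRNA. These calls were less steady than the 2 rises of DROSHA. The siRNA call with control mimic was lost without control replicate 2 or siRNA-only replicate 1, at -0.33 and -0.31 (adjusted p = 0.091 and 0.11). The siRNA call with the mimic was lost in 6 of 15 alternatives, namely DESeq2, limma-voom and the fits without either library of mimic-only cells or of combined cells, at -0.46 to -0.31 (adjusted p = 0.065 to 0.22). The mimic call with control siRNA was lost with DESeq2 (-0.41, adjusted p = 0.069) and without control replicate 2 or mimic-only replicate 1, at -0.29 and -0.34 (adjusted p = 0.11 in each). The mimic value with importin8 siRNA passed with a replicate block (-0.34, adjusted p = 0.032) and without siRNA-only replicate 1 (-0.48, adjusted p = 0.036).

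The ratio of DROSHA to DGCR8 in FPKM was 1.86 and 1.67 in control cells, 2.41 and 2.27 in mimic-only cells, 4.04 and 3.63 in siRNA-only cells, and 4.33 and 4.05 in combined cells. The ratios of the 4 siRNA libraries were all above those of the other 4. It is known that the Microprocessor can cut the DGCR8 transcript itself at hairpins that are also annotated as microRNAs. Their mature products are shown here, with seeds in capitals, because they place these hairpins in the measured transcript.
hsa-miR-3618: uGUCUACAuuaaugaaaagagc
hsa-miR-1306-5p: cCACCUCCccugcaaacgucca
hsa-miR-1306-3p: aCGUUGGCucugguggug
In RefSeq (GRCh38.p14) they lie on the plus strand at chr22:20085797-20085818, chr22:20086072-20086093 and chr22:20086112-20086129. In the annotated DGCR8 transcripts that hold all of them they fall in exon 2, miR-3618 in the 5′ UTR and both miR-1306 arms in the coding part. Their own levels were not analysed here, since the libraries hold poly(A) RNA. Whether cutting at these hairpins had a part in the changes of DGCR8 was not tested. The 3′ end of DGCR8 (chr22:20080232-20111877) meets TRMT2A on the opposite strand, which was at 11.6 to 18.0 CPM.

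**Figure D4:**
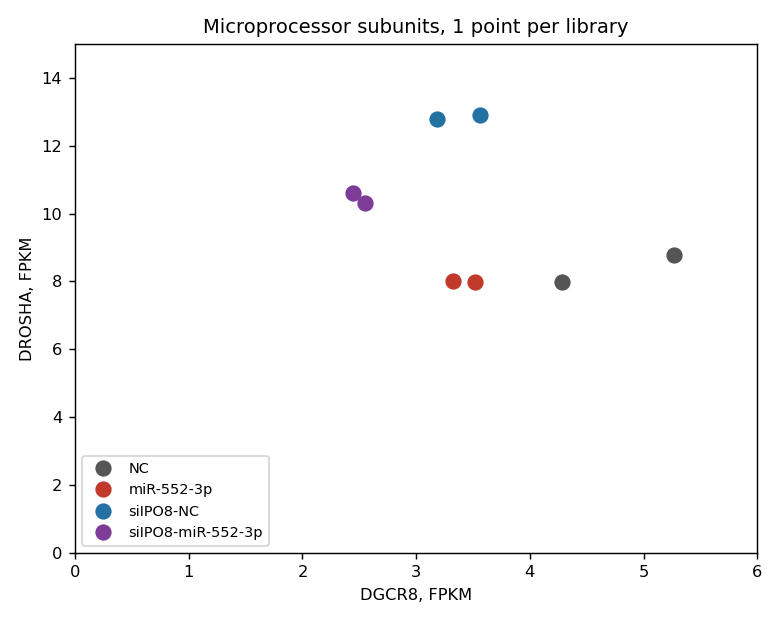
FPKM of DGCR8 (x axis) and DROSHA (y axis), both from 0, with 1 point per library coloured by group. The 4 importin8 siRNA libraries lie at 10.3 to 12.9 FPKM of DROSHA and 2.44 to 3.56 of DGCR8, and the control libraries at 7.98 and 8.79 of DROSHA and 4.28 and 5.27 of DGCR8.

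Of the TNRC6 genes, whose proteins link Argonaute to deadenylation, TNRC6B changed and TNRC6A and TNRC6C gave no call in any comparison. TNRC6B was at 42.5 and 49.1 CPM in control cells, 36.2 and 40.8 in mimic-only cells, 29 and 31.8 in siRNA-only cells, and 29.6 and 30.6 in combined cells. All 4 siRNA libraries were below the other 4. The siRNA lowered it by 0.59 (SE 0.09; adjusted p = 0.00055) with control mimic, in all 15 alternative fits. With the mimic the siRNA effect was -0.36 (SE 0.10; adjusted p = 0.017), lost without mimic-only replicate 2, combined replicate 1 or combined replicate 2, at -0.26, -0.33 and -0.38 (adjusted p = 0.13, 0.12 and 0.079). The mimic value with control siRNA, -0.25 (SE 0.09; adjusted p = 0.040), was the least steady call of this comparison. It failed in 8 of 15 alternatives: DESeq2, the fit of the 4 libraries compared, and those without control replicate 2, mimic-only replicate 1 or any of the 4 siRNA libraries, at -0.25 to -0.15 (adjusted p = 0.051 to 0.26).

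TNRC6A, which supplied 71.1 to 77.4% of the family's FPKM in every library, was at 92.9 and 101 CPM in control cells, 95.7 and 104 in mimic-only cells, 86.5 and 95.9 in siRNA-only cells, and 99.1 and 99.3 in combined cells. Groups next to each other in the order of its means overlapped, while siRNA-only and combined cells, which are not neighbours in it, did not. Its fitted values lay between -0.09 and 0.12. TNRC6C was at 12.7 to 16.7 CPM in all libraries, with values between -0.20 and 0.15. Groups next to each other in the order of its means overlapped, while control and siRNA-only cells did not. Their SEs were 0.07 to 0.10 for TNRC6A and 0.12 to 0.17 for TNRC6C, which sets the size of change that 2 libraries a group could resolve.

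Counted over the 10 genes, the mimic with control siRNA raised 1 (AGO2) and lowered 5 (AGO1, AGO3, DICER1, DGCR8 and TNRC6B). Over all 17715 genes tested, 28.9% were called higher and 29.5% lower in this comparison, or 58.4% in either direction, so 6 of 10 was close to the background. The median of the members was -0.20 and that of all genes -0.01. Leaving out mimic-only replicate 1 lowered the number of members called, and the share of all genes called as well. Libraries of the groups compared did not overlap for 7 of the 10, where 78.5% of all genes did not. With importin8 siRNA the mimic changed 2 of 10, AGO2 up and DROSHA down, beside 31.7% of all genes (15% higher and 16.7% lower), and 6 of 10 did not overlap, beside 68%. Only the AGO2 call was kept on leaving out siRNA-only replicate 2 or either combined library, where the share of all genes called fell too. DESeq2, and the fit with no filter on low counts, also gave 1, beside 22.5% and 20.4% of the genes tested there.

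The importin8 siRNA with control mimic raised 1 (DROSHA) and lowered 5 (AGO3, AGO4, DICER1, DGCR8 and TNRC6B), beside 47% of all genes called, 25.4% higher and 21.6% lower. The median of the members was -0.26, and 8 of 10 did not overlap, beside 73.5% of all genes. With the mimic present the siRNA called 7 of 10, with AGO1, AGO3, DICER1 and DROSHA higher and AGO2, DGCR8 and TNRC6B lower, beside 33.5% of all genes (17.3% higher and 16.2% lower), and 8 of 10 did not overlap, beside 67.8%. This count rested on single libraries, since it fell on leaving out either mimic-only library or either combined library. The share of all genes called fell there too. With DESeq2 the count was 4, beside 24.6% of all genes. DROSHA was called in each of these fits. The rise in AGO1, 0.31 (adjusted p = 0.041), was lost in 8 of 15 alternatives at 0.17 to 0.38. The rise in AGO3, 0.27 (adjusted p = 0.022), was lost in 5 at 0.24 to 0.31, and adjusted p over both genes was 0.051 to 0.34 there. The difference between the mimic effects passed for 3 of 10 (AGO2, AGO3 and DICER1), beside 31.3% of all genes (14.2% more positive and 17.1% more negative with importin8 siRNA). The typical size of a member's change was no larger than that of other genes, with a median absolute log2 value of 0.33 against 0.59 for the mimic with control siRNA and 0.38 against 0.44 for the siRNA with control mimic.

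Other genes of the pathway were followed in 4 lists. The first held 14 genes of guide loading and its chaperones, which help Argonaute open to take up a duplex. With the mimic under control siRNA 11 rose and 1 fell (median 0.63), a share of 85.7% called beside 58.4% of all genes. With the siRNA under control mimic 12 rose and none fell (median 0.40), again 85.7% called, beside 47%. The size of change was near that of other genes. The median absolute log2 value was 0.63 against 0.59 for all genes with the mimic, and 0.40 against 0.44 with the siRNA. HSP90AA1, the inducible HSP90, went from 865 ± 45.6 CPM in control cells to 1960 ± 101 in mimic-only cells (1.18; adjusted p = 9.6e-07) and 1685 ± 69.1 in siRNA-only cells (0.96; adjusted p = 9.2e-06). HSPA8, the constitutive HSP70, rose by 1.16 and the HSP90 activator AHSA1 by 1.06 with the mimic. With the siRNA the HSP90 co-chaperone PTGES3 rose by 0.66 and PRKRA, a DICER1 partner, by 0.64. These 2 comparisons share the control libraries, and HSP90AA1 was lowest there.

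With the mimic under importin8 siRNA 7 of the 14 rose and 2 fell (64.3% called, beside 31.7% of all genes), with HSPA8 at 0.60, FKBP4 at 0.46 and TSN, a subunit of the passenger-strand nuclease C3PO, at -0.63. The siRNA among mimic-treated cells raised 2 and lowered 1 (21.4%, beside 33.5%), with DNAJA2 at 0.33, PRKRA at 0.23 and CDC37 at -0.35. The difference between the mimic effects was negative and passed for 11 of the 14 (78.6%, beside 31.3% of all genes and 17.1% in this direction), including HSP90AA1 at -0.81, AHSA1 at -0.67 and PTGES3 at -0.62. The median absolute log2 value of the list for this difference was 0.46, against 0.44 for all genes. For the mimic under importin8 siRNA it was 0.31 against 0.32. Most of these chaperones serve many other proteins besides Argonaute.

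Of 11 genes of nuclear processing and export, 9 rose and none fell with the siRNA under control mimic (median 0.33; 81.8% called, beside 47% of all genes), led by SRSF3 at 0.50, NCBP1 at 0.49 and HNRNPA1 at 0.45. The median absolute log2 value of the list was 0.33 there, against 0.44 for all genes. With the mimic under control siRNA 5 rose and none fell (45.5%, beside 58.4%), with RAN at 0.51 and the Microprocessor helper DDX5 at 0.46. With the mimic under importin8 siRNA DDX5 rose by 0.26, while NCBP1 and XPO5, the exporter of microRNA hairpins, fell by 0.33 and 0.20 (27.3% called, beside 31.7%). The siRNA among mimic-treated cells raised only SRRT, at 0.27 (9.09%, beside 33.5%). The difference of mimic effects passed for 3 (27.3%, beside 31.3%), among them XPO5 at -0.27 and KHSRP at -0.26.

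Of 28 genes of deadenylation and decay, 7 rose and 6 fell with the mimic under control siRNA, and the same numbers with the siRNA under control mimic, a share of 46.4% called in each beside 58.4% and 47% of all genes. CNOT11, a subunit of the CCR4-NOT deadenylase, fell with the mimic from 222 ± 5.87 to 118 ± 4.37 CPM (-0.92; adjusted p = 6.9e-07), while the catalytic subunit CNOT7 rose by 0.87. PAN2, catalytic subunit of the other deadenylase, fell by 0.70 with control siRNA and by 0.49 with importin8 siRNA. CNOT7 and CNOT10 rose with the siRNA by 0.62 and 0.61, and the decapping factor DCP1A fell by 0.52. In mimic-treated cells the siRNA raised PAN2 and CNOT11 by 0.61 and 0.51. Under importin8 siRNA the mimic called 3 higher and 3 lower (21.4%, beside 31.7%), and the siRNA in mimic-treated cells 4 and 4 (28.6%, beside 33.5%). The difference of mimic effects passed for 7 of the 28 (25.0%, beside 31.3%) and was 0.94 for CNOT11 and -0.64 for CNOT7.

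Of 18 genes of microRNA turnover and Argonaute modification 17 were tested. With the mimic under control siRNA 5 rose and 6 fell (64.7% called, beside 58.4% of all genes). TRIM71, a let-7 target that represses transcripts, fell from 130 ± 5.84 to 56.9 ± 2.37 CPM (-1.20; adjusted p = 3.0e-07), and by 0.71 under importin8 siRNA. Of the enzymes that act on AGO2 phosphorylation, the kinase CSNK1A1 rose by 0.66 and the phosphatase subunit ANKRD52 fell by 0.74 with the mimic under control siRNA. With the siRNA under control mimic 6 rose and 3 fell (52.9%, beside 47%). DIS3L2, which degrades uridylated let-7 precursors, rose by 0.75, and LIN28B, which blocks let-7 maturation, fell by 0.57. Under importin8 siRNA the mimic called 1 higher and 3 lower (23.5%, beside 31.7%), and the siRNA in mimic-treated cells 6 higher and 2 lower (47.1%, beside 33.5%), with ANKRD52 at 0.57 and TRIM71 at 0.52.

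**Figure D5:**
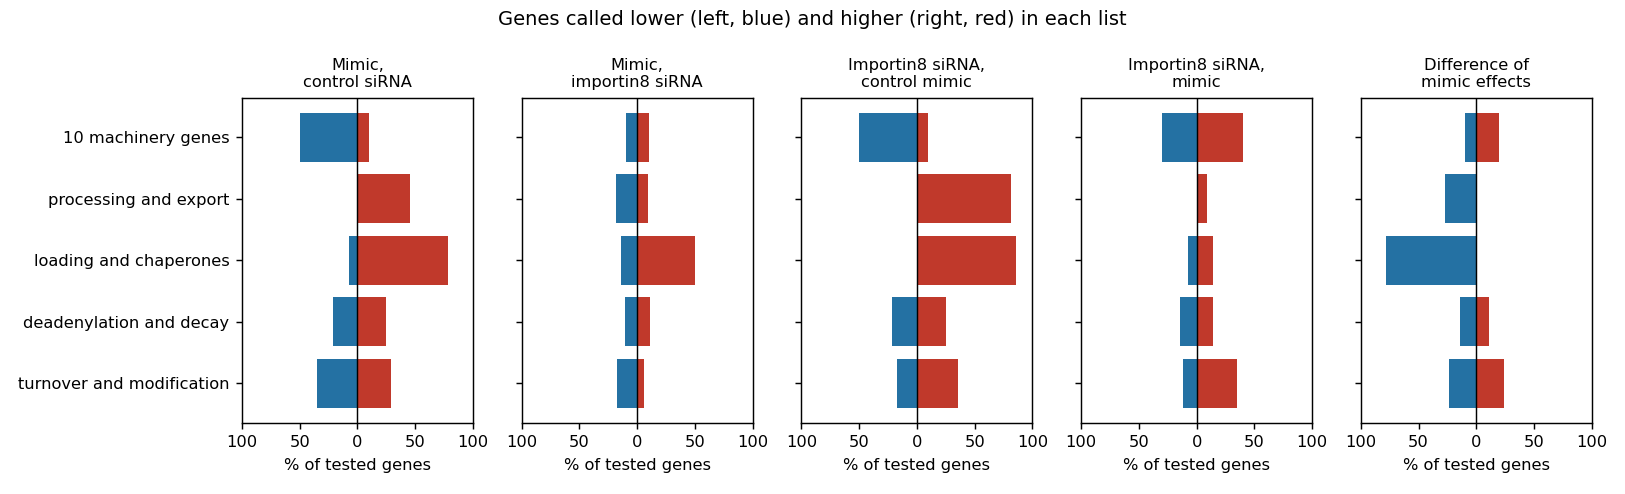
Share of tested genes (x axis, %) called lower (blue, left) and higher (red, right) in the 10 machinery genes and the 4 lists of other pathway genes, in each comparison. Loading and chaperone genes were called higher in 11 of 14 with the mimic under control siRNA and in 12 of 14 with the siRNA under control mimic, while the 10 machinery genes were called lower in 5 of 10 in each.

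Across the 8 libraries, the patterns most like that of AGO2 among 10993 well-measured named genes were those of CYTH3 (Pearson r = 0.997 of log2 CPM), TES (0.996), FAM120A (0.995), METTL8 (0.995) and PALLD (0.994). PALLD, an actin-associated protein, went from a mean of 3.60 CPM in control cells to 76.2 in mimic-only cells, a far wider range than that of AGO2. The 5 nearest to DICER1 were DENND1B (0.982), EPHB4 (0.982), B3GNT9 (0.979), LINC01138 (0.979) and SHROOM1 (0.979). These correlations describe 8 libraries in 4 groups and carry no test. Among the 10 genes themselves AGO2 and DICER1 had r = -0.75, and AGO4 and DROSHA r = -0.93.

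The mimic's seed matches in the longest annotated 3′ UTRs (GENCODE 29, GRCh38) were set beside the changes. AGO3 held 4 matches, all of the 8-letter form, in a 3′ UTR of 16755 bases, and AGO2 held 3 matches of 7 letters in 11888 bases. AGO1, AGO4, DGCR8 and TNRC6C held 1 each, and DICER1, DROSHA, TNRC6A and TNRC6B held no match to all of bases 2 to 8. The weaker form ACCTGTA, which pairs with bases 2 to 7 and ends in A, was counted where it did not overlap the others. AGO2 held 2 of these, AGO3, AGO4 and TNRC6B 1 each, and the other members none. The 7-letter match was present in 19.3% of 13719 tested genes with a 3′ UTR and the 8-letter form in 8.70%. Long 3′ UTRs hold it more often: of tested genes with a 3′ UTR of like length, it was in 88.1% for AGO3, 78.5% for AGO2 and 72.8% for AGO1. The member with the largest fall under the mimic, DICER1, had no match of any of these forms in 4270 bases, where 43.6% of genes of like length held the 7-letter match CACCTGT. AGO2, which rose, had 3 of the latter. TNRC6B, called lower with the mimic under control siRNA, had no CACCTGT in 12567 bases, where 83.3% of genes of like length held it. Whether matches had a part in any of these changes was not tested, and the coding parts of transcripts and other annotated 3′ UTRs were not searched. In windows of 300 bases around annotated starts (RefSeq, GRCh38.p14), 0 of 16 windows of 9 of the genes held CACCTGT or ACAGGTG, which 4.11% of 35116 windows held, and AGO2 is not among the 9.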

How the data were processed

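RNA-seq of 8 HepG2 libraries, 2 in each of 4 groups, was analysed from the deposited gene table. The authors deposited an RSEM expected count per gene and library (Bowtie2 2.2.5, HISAT2 2.0.4, RSEM 1.2.8 and GRCh38.p12, per the submitters' processing notes, which give no roles), made from single-end reads of 50 bases. Beside each count the deposited table holds an expression value with no unit in its header, read here as FPKM because count divided by value gave a steady length per gene. Its column names are abbreviations that were matched to the samples' titles. A smaller deposited table of 4 libraries held the same values for 25738 genes and was not used.

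Expected counts were rounded, filtered with edgeR's filterByExpr and scaled by TMM. One mean per group was fitted over all 8 libraries with edgeR 4.0.16 (R 4.3.3), using the quasi-likelihood test with Benjamini-Hochberg adjustment over 17715 genes at 0.05. The SE of a fold change is its size divided by the root of the F statistic, an approximation. CPM used the TMM library sizes. The 4 comparisons were the mimic with each siRNA and the siRNA with each mimic, and the fifth test was the difference between the mimic effects. Comparisons share groups, so their calls are not independent. Alternatives were DESeq2 1.42.0, limma-voom (limma 3.58.1), RLE and upper-quartile scaling, no filter, a replicate block, only the libraries compared, and leaving out each library. Where counts were drawn from a dispersion set for each gene in simulated data, the share of false calls exceeded the nominal rate in some runs, so calls near the threshold are less certain than their adjusted p says.

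Replicates of a group differed beyond counting noise (chi-square per degree of freedom 4.53 to 10.6), so none was merged. The members, the pathway lists and the markers were chosen with earlier results of these data known. Named genes were all members, IPO8, the up to 3 called genes of each list with the largest change in a comparison, and the 5 genes most correlated with AGO2 and with DICER1 among genes with a mean of at least 100 counts. Some list genes that the rule names are covered by the counts only. Seed matches were sought in the longest 3′ UTR of each gene in GENCODE 29 (GRCh38), and microRNA and promoter sequences are from RefSeq (GRCh38.p14). Some items are not reported here.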

Additional observations from a re-analysis of the deposited data

Results flagged for a closer look

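The effect of the mimic differed between the siRNA settings for 3 of the 10 genes, by a test of the difference itself (edgeR's quasi-likelihood test, Benjamini-Hochberg adjusted over all genes), beside 31.3% of all genes tested. For DICER1 the mimic effect with importin8 siRNA was higher by 0.74 on the log2 scale (SE 0.12; adjusted p = 0.00092) than with control siRNA. For AGO3 it was higher by 0.59 (SE 0.11; adjusted p = 0.0028). For AGO2 the difference was -0.43 (SE 0.11; adjusted p = 0.017), with a rise in both settings, and it did not pass without mimic-only replicate 2 (-0.33), siRNA-only replicate 1 (-0.37) or combined replicate 2 (-0.39).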

How the results depend on the processing

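Of 740 values of the 10 genes under the alternatives, 663 kept their direction and their side of the threshold, 53 lost a call, 5 gained one and 19 changed sign, all 19 of them uncalled values near 0. In the mimic comparison with control siRNA, leaving out 1 library gave 3 to 6 called members, against 6. With importin8 siRNA it gave 1 to 2 against 2, and 3545 to 6087 genes against 5607; DESeq2 and no filter on low counts each gave 1 member. For the siRNA with the mimic it gave 1 to 7 against 7, and DESeq2 gave 4.

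Signs changed in the mimic comparison with control siRNA for TNRC6A, at -0.025 with upper-quartile scaling and -0.026 to 0.099 over fits leaving out 1 library, and for DROSHA at -0.028 to 0.006. With importin8 siRNA the ranges over such fits were -0.188 to 0.086 for AGO1, -0.007 to 0.090 for DICER1, -0.080 to 0.054 for TNRC6B and -0.090 to 0.199 for TNRC6C. For the siRNA with control mimic AGO1 ran from -0.138 to 0.037. For the siRNA with the mimic TNRC6A ran from -0.060 to 0.059 and was 0.002 with no filter, and TNRC6C ran from -0.126 to 0.050. The difference of mimic effects for DGCR8 ran from -0.071 to 0.225. The cause of these moves was not tested.

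Over all tested genes, deviations of same-numbered libraries correlated at -0.003 to 0.087 between groups, so replicate numbers gave little sign of pairing there. This does not settle it for single genes, since replicate 2 was above replicate 1 in every group for TNRC6A, TNRC6B and TNRC6C. With replicate as a block, TNRC6B under the mimic with control siRNA had SE 0.068 (adjusted p = 0.0105), against 0.093 (adjusted p = 0.0404). With a replicate block the called members were 6, 3, 6, 6 and 3 in the order of the tests, against 6, 2, 6, 7 and 3. The shares of all genes called with the block were 58.8, 33, 48, 34.6 and 32.7%. DGCR8 gained a call there under importin8 siRNA (-0.338, adjusted p = 0.0316), and AGO1 lost one in mimic-treated cells (0.306, adjusted p = 0.052). With 2 libraries a group, leaving out 1 leaves a lone library that is assumed to vary like the other groups. DGCR8, with as few as 253 counts in a library, and TNRC6C had the largest SEs.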

Other observations

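The transcript length implied by a library's count and FPKM reflects which isoforms the authors' estimate assigned reads to. For AGO2 it was 14910 to 14976 bases in all libraries. For AGO3 it was 6386 and 6221 bases in control cells, 5658 and 5171 in mimic-only cells, 5804 and 5815 in siRNA-only cells, and 4703 and 5718 in combined cells. The FPKM of AGO3 therefore need not move as its counts do. For TNRC6A it was 9412 to 9538 bases in the 4 libraries with control siRNA and 9941 to 10151 in the 4 with importin8 siRNA. These lengths were not tested.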
